A study of Mus musculus with 12 samples.

Results

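The genes described here are 37 genes of fibroblasts and of the extracellular matrix other than collagens, chosen by a list of symbols, out of 21899 genes in the deposited table. All 37 symbols matched a row each, and 36 passed the low-count filter, which left 14393 genes. The exception was Has1. They were measured by RNA-seq of colon tissue from 12 mice, of which 6 carried a deletion of Pck1 restricted to intestinal epithelial cells (labelled CKO) and 6 were littermate controls (labelled WT). Pck1 encodes the cytosolic phosphoenolpyruvate carboxykinase of gluconeogenesis. Mice of both genotypes received 2.5% dextran sulfate sodium (DSS), which damages the epithelium of the colon and causes colitis, for 7 days, so every value below comes from an injured colon. The driver of the deletion, the alleles of the controls, strain, sex and age of the mice were not stated in the labels. The deletion lies in epithelial cells, whereas the genes described are expressed mainly in the stroma beneath them.

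Fibroblasts of the colon build the fibrous bed of the mucosa and submucosa. They secrete small proteoglycans that coat collagen fibrils, adhesive glycoproteins such as fibronectin and tenascin C that cells crawl on, and elastic fibres, which lysyl oxidases cross-link. They sense injury through platelet-derived growth factor (PDGF) receptors and cytokine receptors. In healing tissue, a provisional matrix rich in fibronectin and tenascin is laid down before the lasting fibrils. Several of these genes are not restricted to fibroblasts: endothelium expresses Cd34 and Sparc, pericytes Pdgfrb, leukocytes and endothelium Vim, and lymphatic endothelium Pdpn.

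The libraries held 15348192 to 18211663 counts in the knockouts and 15881625 to 19138507 in the controls. Levels are given as CPM (counts relative to library size, scaled by the trimmed mean of M values, TMM) and, where genes are compared with each other, as the deposited TPM, which account for gene length. Pck1 stood at 2.28 to 7.32 CPM in the knockouts and at 34.5 to 84.7 CPM in the controls, which matches the labels. Counts mapped to mitochondrial genes made up 5.59% to 10.2% of knockout libraries and 7.11% to 10.7% of control libraries, with the lowest share in knockout replicate 2. The libraries are bulk tissue, in which more fibroblasts and more RNA per fibroblast cannot be told apart. Nothing in the labels names a batch, and nothing beyond the mouse number says how the samples were taken. The p values set the difference between genotypes against the spread within each genotype, over these 12 samples only.

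Fibroblast RNA was present in every library. Dcn had the highest level per length of all 37 genes, with a mean of 1347 against 623 TPM (knockout against control), and the lowest library still held 366 TPM. Sparc followed with 726 against 426 TPM, then Igfbp4 with 495 against 226 TPM, Igfbp5 with 481 against 177 TPM and Bgn with 361 against 222 TPM. The PDGF receptor alpha gene Pdgfra, a general fibroblast marker, stood at 54.7 against 29.8 TPM, and Lum at 117 against 85.7 TPM. At the other end, Fap stood at 2.64 against 2.06 TPM, Il13ra2 at 2.57 against 1.51 TPM, Has2 at 1.47 against 0.865 TPM, Fmod at 1.08 against 0.907 TPM and Has1 at 0.928 against 0.369 TPM. Together the 37 genes summed to 3602 to 8322 TPM in the knockouts and 2305 to 4220 TPM in the controls, ranges that overlap. Depth differed accordingly: Dcn had 5645 to 27037 counts per library and Fmod 13 to 56.

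**Figure D1:**
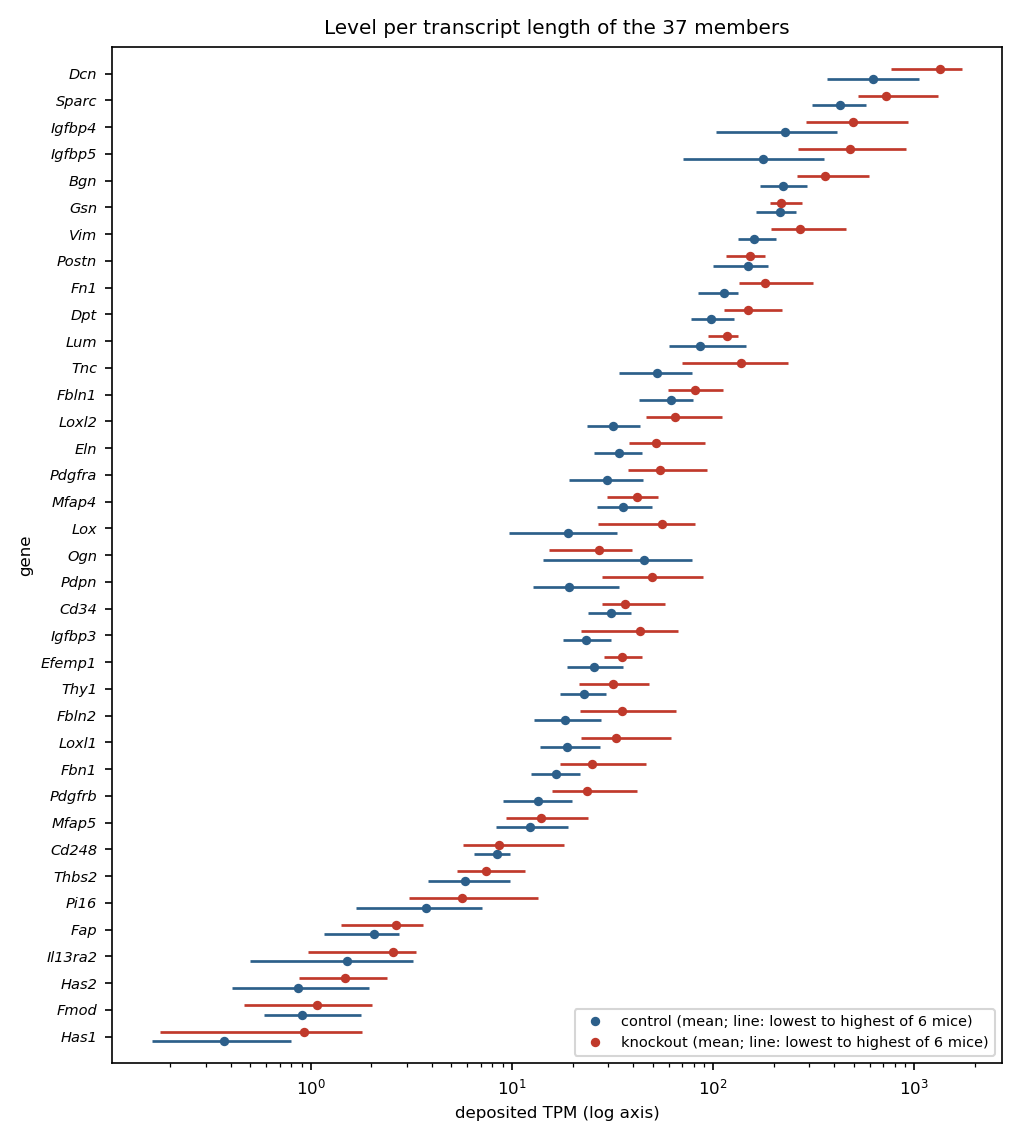
Deposited TPM (log axis) of the 37 genes, ordered by their mean; points are means of 6 mice per genotype and lines run from the lowest to the highest mouse. Dcn lies at the top with 1347 against 623 TPM (knockout against control) and Has1 at the bottom, and the lines of both genotypes overlap for every gene but Fn1 and Loxl2.

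Compared between genotypes, most of these genes had a higher mean in the knockout, but none passed the test across all genes. Of the 36 tested, 32 (88.9%) had a log2 fold change (knockout minus control) above 0, whereas 45.1% of all tested genes did. The median over the 36 was 0.63, beside -0.03 over all genes tested. At an unadjusted p under 0.05 in edgeR's quasi-likelihood test, 20 of 36 (55.6%) were higher, beside 13.1% of all genes, and 1, Ogn, was lower, beside 9.48% of all genes. After Benjamini-Hochberg adjustment 0 of the 36 were under 0.05, as were few genes of any kind (4 higher, 0.0278%, and 4 lower). The smallest adjusted p among the 36 was 0.0512, for Tnc. At an adjusted p under 0.1, 17 of 36 (47.2%) were higher, beside 6.59% of all genes. With DESeq2, 17 were called higher at 0.05, beside 7.98% of all genes. The authors' deposited table lists the same 17 with a false discovery rate under 0.05. In this direction it lists 4.65% of all its genes and 6.88% of the 14393 genes tested here. Its test is not named. With library size as the only scaling, edgeR called 230 genes higher and 45 lower, and 4 of the 36 were called higher, beside 1.6% of all genes. With DESeq2's size factors it called 33 and 19, and 1 of the 36, beside 0.229% of all genes. At an unadjusted p under 0.05 the split over all genes was 1885 higher and 1365 lower with TMM, and 2170 and 897 with library size only. The median of all genes moved by less than 0.1 under any of these scalings.

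**Figure D2:**
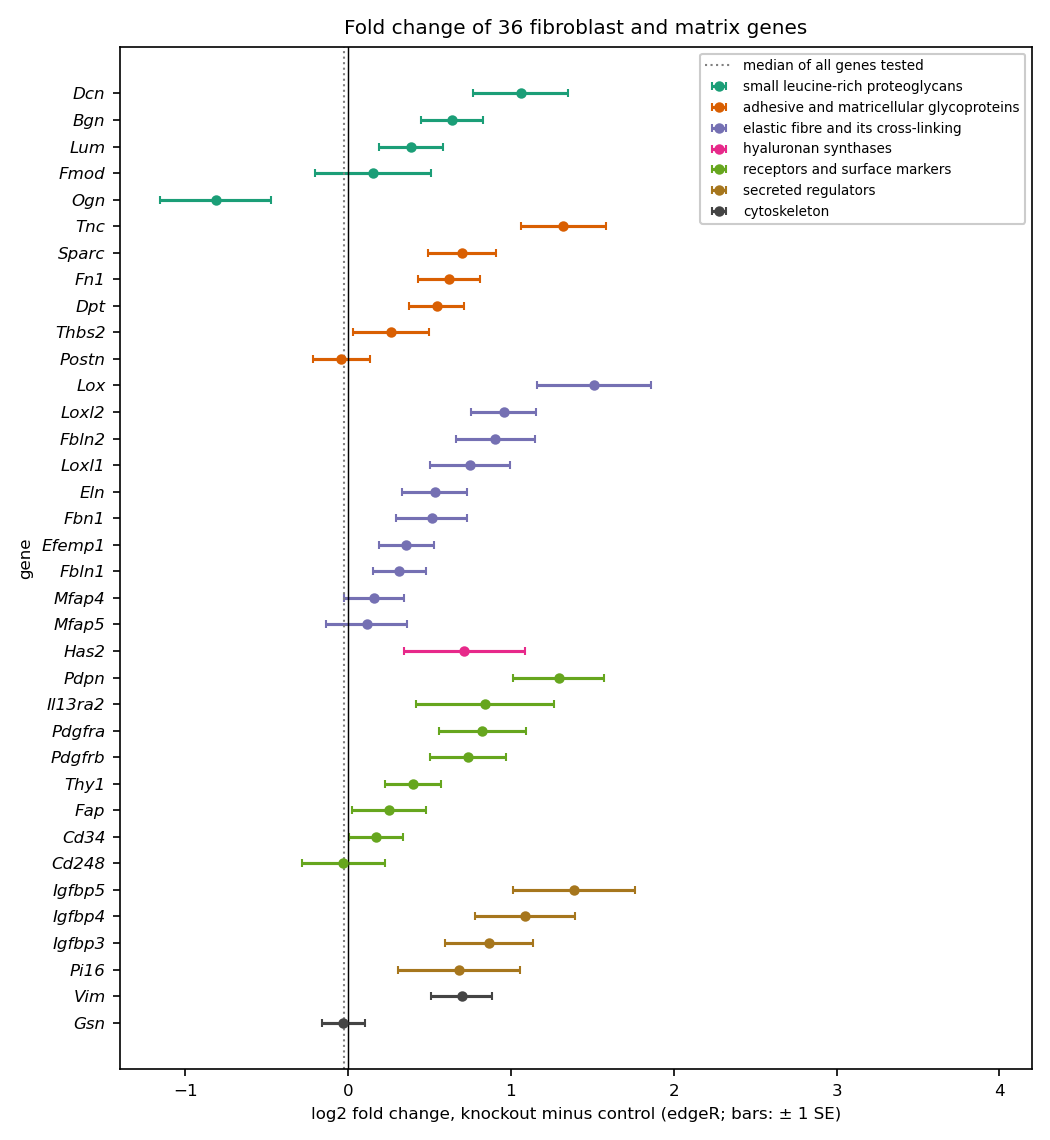
Log2 fold change (knockout minus control, edgeR) of the 36 tested genes with bars of 1 SE, in blocks by role; the dotted line marks the median of all genes tested. Lox lies farthest to the right at 1.51 ± 0.35 and Ogn farthest to the left at -0.81 ± 0.34.

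Among the small leucine-rich proteoglycans, which bind collagen fibrils and set their spacing, 4 of 5 genes had a log2 fold change above 0, 2 of them at an unadjusted p under 0.05, and Ogn was below 0. Over all genes tested, 45.1% were above 0 and 13.1% were higher at that threshold. Dcn, encoding decorin, ran from 732 through a median of 1235 to 1783 CPM in the knockouts and from 348 through 463 to 1033 CPM in the controls. Of the 6 knockouts 5 lay above every control, while knockout replicate 4 (732 CPM) lay below control replicates 4 and 6. Its log2 fold change was 1.06 ± 0.29 (SE), with an edgeR adjusted p of 0.0661. Bgn, encoding biglycan, the nearest relative of decorin, ran from 340.0 through a median of 419.5 to 735 CPM in the knockouts and from 227 through 281 to 377 CPM in the controls. Again 5 knockouts exceeded all controls and replicate 4 did not, and the log2 fold change was 0.64 ± 0.19 (adjusted p 0.0804). Lum, the gene of lumican, which shapes fibril diameter, differed less: 152 ± 17.5 against 116 ± 44.4 CPM (SD, n = 6 each, knockout against control), with the highest value of all 12 libraries in control replicate 6 and a log2 fold change of 0.39 ± 0.20 (adjusted p 0.259). Fmod, encoding fibromodulin, was rare at 1.76 ± 0.789 against 1.59 ± 0.869 CPM, with a log2 fold change of 0.15 ± 0.36 that turned to -0.11 without knockout replicate 2.

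Ogn, encoding osteoglycin (mimecan) of the same family, was the one gene of the 36 with a lower mean at an unadjusted p under 0.05. It ran from 20.0 through a median of 40.2 to 52.2 CPM in the knockouts and from 19.8 through 61.1 to 118 CPM in the controls. No knockout lay above the control median, but control replicate 1, at 19.8 CPM, was the lowest of all 12 libraries, so the groups overlap. The log2 fold change was -0.81 ± 0.34 (SE) with an adjusted p of 0.179. It stayed below 0 under all 25 alternatives tried, from -1.0 to -0.56. Within a library, the ratio of Dcn to Ogn CPM, which does not depend on scaling, was 19.2 to 74.9 in the knockouts (median 35.6) and 3.87 to 17.5 in the controls (median 11.3), without overlap. The ratio was chosen after the values were seen and has no test. For Dcn over Lum the ratio was 5.82 to 10.3 in the knockouts (median 8.31) and 4.37 to 7.07 in the controls (median 4.67), with overlap.

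The adhesive and matricellular glycoproteins held the gene with the smallest p of the 36. Tnc, encoding tenascin C, a large glycoprotein that appears at wound edges, ran from 265 through a median of 480.0 to 847 CPM in the knockouts and from 132 through 187 to 293 CPM in the controls. Only knockout replicate 4 (265 CPM) lay among the controls, below control replicates 4 (293 CPM) and 6 (271 CPM). The log2 fold change was 1.32 ± 0.26 (SE), or 2.50-fold, with an edgeR adjusted p of 0.0512. Sparc, encoding osteonectin, a collagen chaperone of remodelling tissue, ran from 597 through a median of 699 to 1349 CPM in the knockouts and from 361 through 449.6 to 632 CPM in the controls. Its highest library, knockout replicate 2, lay well above the next at 774 CPM, and 5 knockouts exceeded all controls (log2 fold change 0.70 ± 0.21, adjusted p 0.0771). Fn1, encoding fibronectin, to which integrins attach, ran from 577 through a median of 676 to 1261 CPM in the knockouts and from 366 through 524 to 588 CPM in the controls. Here too knockout replicate 2 stood apart and 5 knockouts exceeded all controls in CPM (log2 fold change 0.62 ± 0.19, adjusted p 0.0835).

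The other glycoproteins were closer between genotypes. Dpt, encoding dermatopontin, a binding partner of decorin, stood at 136 ± 35.6 against 93.4 ± 18.7 CPM (SD, n = 6), with a log2 fold change of 0.54 ± 0.17 (adjusted p 0.0878). Thbs2, encoding thrombospondin 2, an inhibitor of angiogenesis, stood at 23.1 ± 6.10 against 19.2 ± 7.52 CPM (log2 fold change 0.27 ± 0.23, adjusted p 0.552). Postn, encoding periostin, which like tenascin C is a matricellular protein of healing and fibrotic tissue, stood at 230.4 ± 40.5 against 237 ± 61 CPM. Its log2 fold change was -0.04 ± 0.17 (adjusted p 0.922), and its sign changed under 8 of 25 alternatives, library size as the only scaling among them (0.00). The ratio of Tnc to Postn CPM was 1.13 to 4.88 in the knockouts (median 1.94) and 0.603 to 1.32 in the controls (median 0.856), with overlap.

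All 10 genes of the elastic fibre and its cross-linking had a log2 fold change above 0, 6 of them at an unadjusted p under 0.05. The shares of all genes were 45.1% above 0 and 13.1% higher at that threshold. The 3 lysyl oxidase genes were among the 4 largest fold changes of the block. Lysyl oxidases are copper enzymes that cross-link collagen and elastin. Lox, the founding member, ran from 68.7 through a median of 129 to 226 CPM in the knockouts and from 24.2 through 37.3 to 83.1 CPM in the controls. Knockout replicates 1, 2 and 3 lay highest and replicate 4, at 68.7 CPM, was below control replicates 4 and 6. The log2 fold change of 1.51 ± 0.35 (SE) was the largest of the 36, 2.85-fold, with an edgeR adjusted p of 0.0541. Loxl2, a relative that acts on collagen IV, ran from 134 through a median of 165 to 296 CPM in the knockouts and from 70.0 through 89.7 to 122 CPM in the controls. It was the 1 gene of 36 whose groups did not overlap, as was the case for 0.882% of all genes in this direction, with a log2 fold change of 0.96 ± 0.20 and an adjusted p of 0.0531. Loxl1, which cross-links elastin, stood at 57.3 ± 24.6 against 34.1 ± 9.19 CPM (SD, n = 6; log2 fold change 0.75 ± 0.25, adjusted p 0.0961).

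Of the fibre proteins themselves, Fbln2 differed most. It encodes fibulin 2, a linker between fibronectin, fibrillin and the basement membrane, and ran from 55.2 through a median of 78.9 to 155 CPM in the knockouts and from 32.4 through 42.2 to 63.0 CPM in the controls. Knockout replicate 2 was far above the others, and 5 knockouts exceeded all controls (log2 fold change 0.91 ± 0.24, adjusted p 0.0632). Eln, encoding elastin, stood at 94.3 ± 34.9 against 65.2 ± 11.2 CPM (SD, n = 6), with a log2 fold change of 0.53 ± 0.20 (adjusted p 0.137) that was 0.31 without knockout replicate 2. Fbn1, encoding fibrillin 1 of the microfibrils, stood at 0.51 ± 0.22 (adjusted p 0.184) and 0.26 without that library. Within libraries, the ratio of Loxl2 to Eln CPM was 1.58 to 2.47 in the knockouts (median 1.89) and 1.2 to 1.54 in the controls (median 1.44), without overlap. This ratio too was chosen after the values were seen and has no test, and Loxl2 alone already had groups without overlap. Fibulin 1 (Fbln1) and fibulin 3 (Efemp1) stood at 0.32 ± 0.16 and 0.36 ± 0.17 on the log2 scale (adjusted p 0.274 and 0.228). The microfibril-associated genes Mfap4 and Mfap5 stood at 0.16 ± 0.18 and 0.11 ± 0.25 (adjusted p 0.655 and 0.831), and Mfap5 turned to -0.10 without knockout replicate 2.

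**Figure D3:**
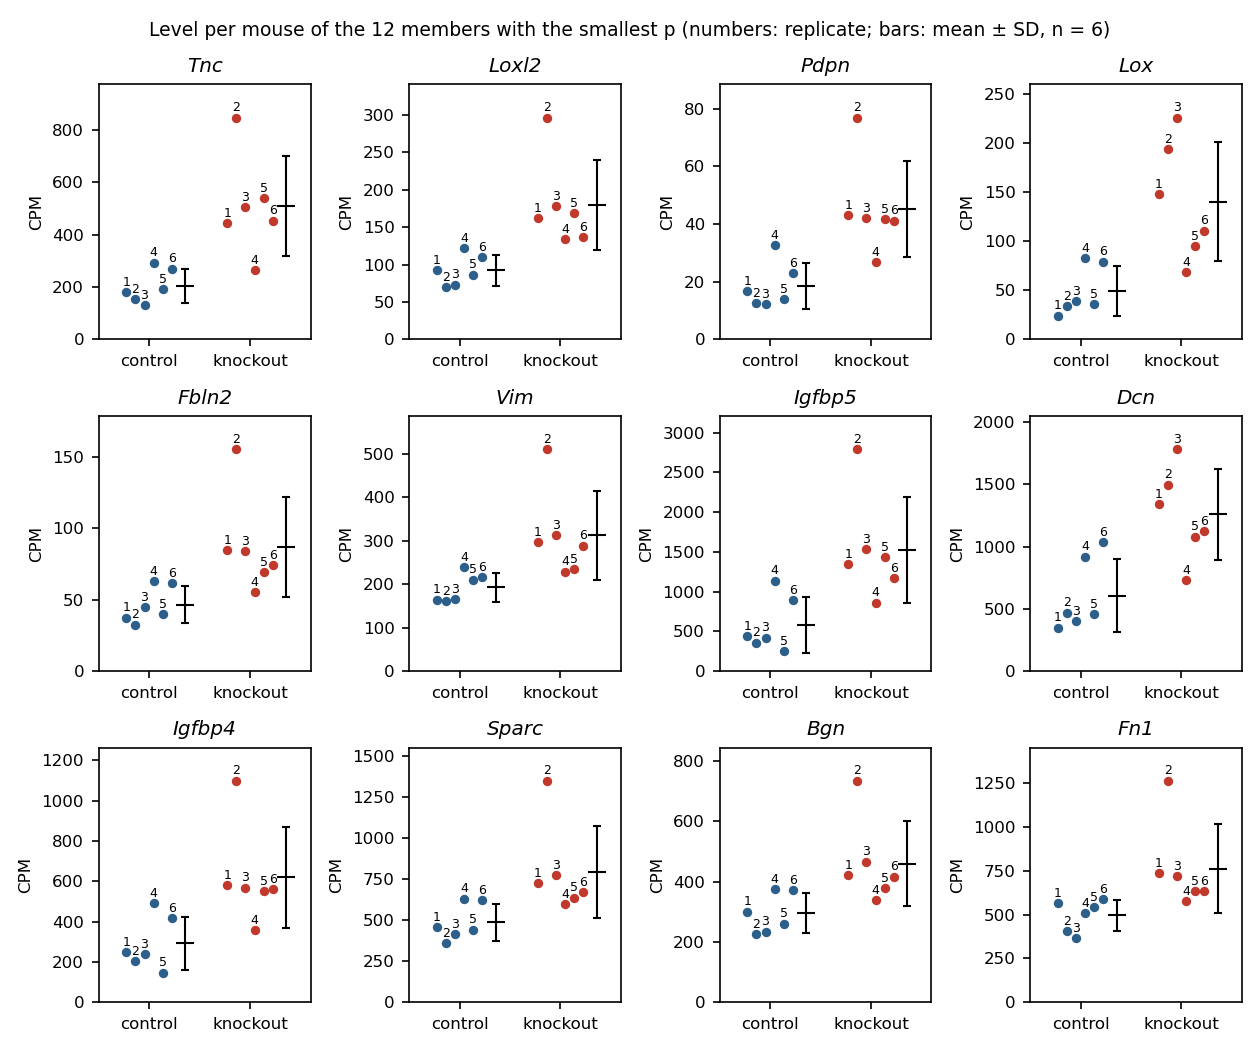
CPM of the 12 genes with the smallest p, 1 panel each, with a point per mouse labelled by its replicate number and the mean ± SD (n = 6) beside it. Knockout replicate 2 is the highest library in 10 of the 12 panels, knockout replicate 4 is the lowest knockout in all 12, and the highest control is replicate 4 or 6 in every panel.

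Of the 8 receptor and surface genes 7 had a log2 fold change above 0, 4 of them at an unadjusted p under 0.05. Beside these stood 45.1% of all genes above 0 and 13.1% higher at that threshold. Pdpn, encoding podoplanin, a mucin-like protein of activated fibroblasts and of lymphatic endothelium, ran from 26.8 through a median of 41.8 to 76.9 CPM in the knockouts and from 12.3 through 15.3 to 32.6 CPM in the controls. Outside replicates 2 and 4 the knockouts lay within 41.2 to 43.1 CPM, above all controls. The log2 fold change was 1.29 ± 0.28 (SE), 2.45-fold, with an edgeR adjusted p of 0.0531. Both PDGF receptor genes had higher means in the knockouts. Pdgfra, on fibroblasts, stood at 184 ± 67.9 against 104 ± 40.3 CPM (SD, n = 6; 0.82 ± 0.27, adjusted p 0.0939) and Pdgfrb, on pericytes and fibroblasts, at 67.1 ± 24.9 against 40.3 ± 11.9 CPM (0.74 ± 0.23, adjusted p 0.0895). In both, every knockout exceeded the control median, and the groups overlapped. Il13ra2, the decoy receptor for interleukin 13, was rare at 2.62 ± 0.853 against 1.46 ± 1.0 CPM, with knockout replicate 4 (1.03 CPM) among the low controls (0.84 ± 0.42, adjusted p 0.260).

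The other surface markers had smaller fold changes. Thy1 (CD90) stood at a log2 fold change of 0.40 ± 0.17 (SE; adjusted p 0.184), Fap, the fibroblast activation protease, at 0.25 ± 0.23 (0.566), and Cd34, a sialomucin of resting fibroblasts and endothelium, at 0.17 ± 0.17 (0.592). Cd248, encoding endosialin of pericytes and fibroblasts, stood at 11.9 ± 6.11 against 12.1 ± 2.10 CPM (SD, n = 6). Its log2 fold change was -0.03 ± 0.25 (adjusted p 0.965), with knockout replicate 2 highest at 24.2 CPM, and was -0.37 without that library. Its sign was not fixed: 0.02 with library size as the only scaling. Cd34 without that library was 0.01 and Thy1 0.25.

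Secreted regulators of insulin-like growth factors (IGF) were the block with the highest median, 0.97 over 4 genes with Pi16. Igfbp5, an IGF-binding protein that also lodges in the matrix, ran from 861 through a median of 1389 to 2793 CPM in the knockouts and from 247 through 429 to 1139 CPM in the controls. Knockout replicate 2 lay well above the next library (1532 CPM), and knockout replicate 4 (861 CPM) lay below control replicates 4 (1139 CPM) and 6 (892 CPM). The log2 fold change was 1.39 ± 0.37 (SE), with an edgeR adjusted p of 0.0636. The ratio of Igfbp5 to Dcn CPM was 0.859 to 1.86 in the knockouts (median 1.11) and 0.542 to 1.27 in the controls (median 0.954), with overlap. Igfbp4, whose product is cleaved by the protease PAPP-A to release IGF, ran from 360.0 through a median of 565 to 1099 CPM in the knockouts and from 148 through 245 to 492 CPM in the controls. The order of libraries was similar, with control replicate 5 lowest for both (log2 fold change 1.08 ± 0.31, adjusted p 0.0697). Igfbp3, the main IGF carrier of the circulation, stood at 56.5 ± 25.7 against 31.0 ± 6.93 CPM (SD, n = 6; 0.86 ± 0.27, adjusted p 0.0874). Pi16, a marker of adventitial fibroblasts, stood at 10.6 ± 6.78 against 6.59 ± 3.06 CPM, with knockout replicate 2 alone above all controls, and its log2 fold change of 0.68 ± 0.37 (adjusted p 0.303) was 0.26 without it.

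The cytoskeletal and hyaluronan genes completed the set. Vim, encoding vimentin, the intermediate filament of mesenchymal cells and leukocytes, ran from 229 through a median of 293 to 511 CPM in the knockouts and from 160.1 through 189 to 239 CPM in the controls. All knockouts exceeded the control median, 4 of 6 exceeded every control, replicates 4 and 5 did not, and the log2 fold change was 0.70 ± 0.19 (SE; adjusted p 0.0636). Gsn, encoding gelsolin, an actin-severing protein of fibroblasts and smooth muscle, stood at 302 ± 49.2 against 308 ± 49.3 CPM (SD, n = 6) and -0.03 ± 0.13 (adjusted p 0.928), with a sign that changed under 8 of 25 alternatives, library size as the only scaling among them (0.01). Has2, a hyaluronan synthase of the plasma membrane, stood at 3.30 ± 1.40 against 2.01 ± 1.23 CPM (0.71 ± 0.37, adjusted p 0.276). Has1, of the same family, stayed under the low-count filter at 0.185 to 2.03 CPM in the knockouts and 0.185 to 0.974 CPM in the controls, 3 to 32 counts per library.

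Differences between mice of 1 genotype were large and ran through most of the set. Knockout replicate 2 was the highest of all 12 libraries in 26 of 36 genes (72.2%), and the lowest library was control replicate 1, 2 or 3 in 31 (86.1%). A control was highest in 5 genes: Lum, Postn, Mfap4, Ogn and Fmod. As the mean of log2 CPM over the 36, centred on all libraries, knockout replicate 2 lay at 0.86, the other knockouts at -0.05 (replicate 4) to 0.37, control replicates 4 and 6 at 0.11 and 0.12, and the remaining controls at -0.61 to -0.25. In 28 of the 36 genes control replicate 4 lay above knockout replicate 4, and in 27 control replicate 6 did. In all, 10 genes had exactly 5 knockouts above all controls, and in all 10 the exception was knockout replicate 4. These 10 were Dcn, Tnc, Fn1, Bgn, Fbln2, Sparc, Lox, Pdpn, Igfbp4 and Igfbp5. The shares of all genes with these orders of libraries were not computed, so the counts are not shown to be particular to this set.

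**Figure D4:**
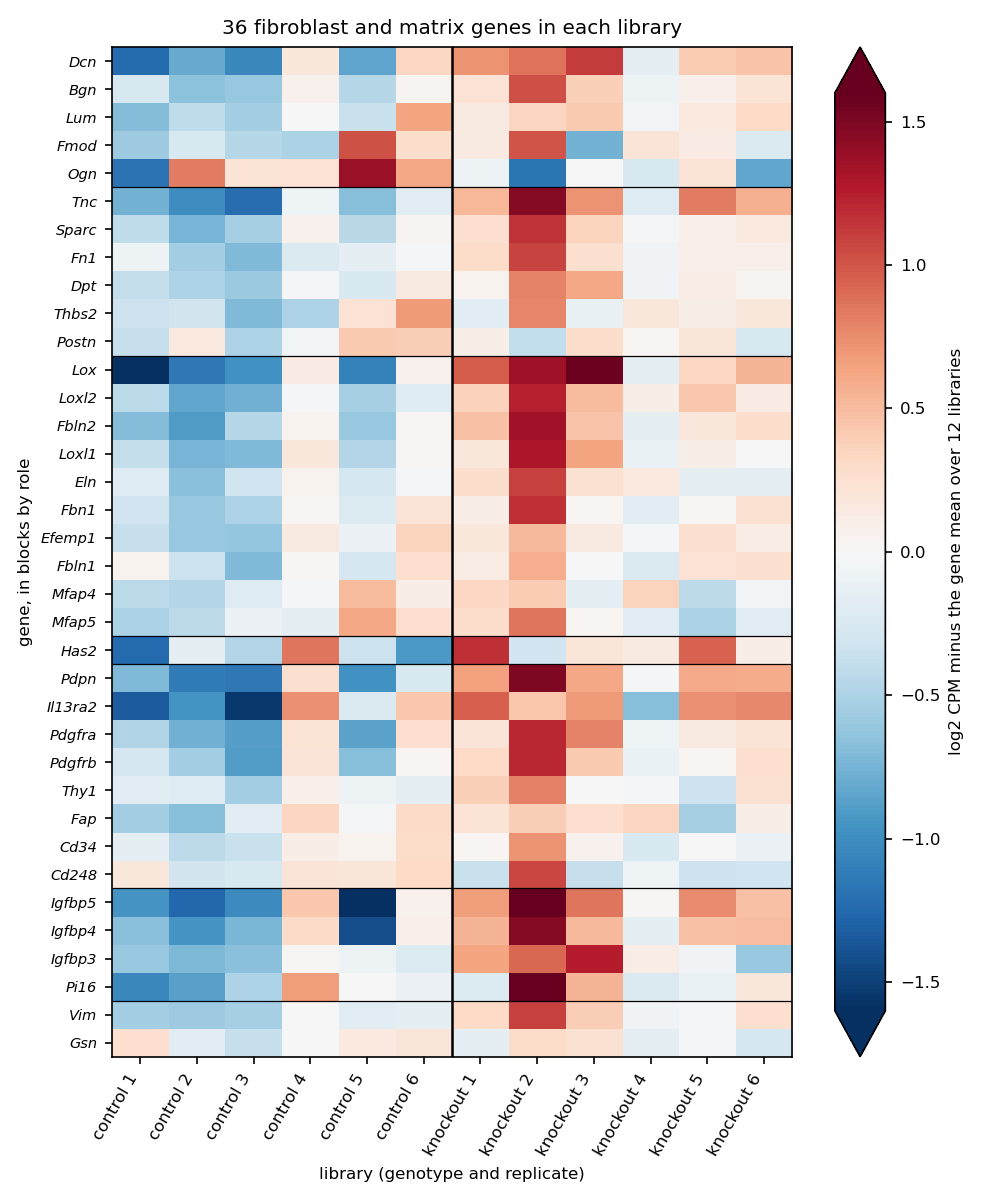
Log2 CPM of each of the 36 tested genes minus its mean over the 12 libraries (colour scale from -1.6 to 1.6, values beyond it at the end colours), with controls left of the line and knockouts right. The column of knockout replicate 2 is red in most rows, control replicates 1 to 3 are blue, and control replicates 4 and 6 and knockout replicate 4 are pale; Ogn and Postn depart from the pattern.

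The number of these genes called changed when single libraries were left out, as it did with the test used. Without replicate 4 of either genotype, which had been seen to lie toward the other genotype, 18 of 37 were called higher by edgeR at an adjusted p under 0.05 and 0 lower, beside 8.4% of all genes called higher. In that setting the groups of 14 of the 37 did not overlap, beside 6.18% of all genes. Leaving out 2 libraries because of where they lie widens the difference by construction, so these values describe the other 10 mice. The largest were Lox at 1.87 ± 0.33 (SE; adjusted p 0.00670), Igfbp5 at 1.82 ± 0.34 (0.00877), Pdpn at 1.65 ± 0.23 (0.00363) and Tnc at 1.59 ± 0.23 (0.00382). Has2 and Il13ra2 were called there and not by DESeq2 on all libraries, Fn1 was called by DESeq2 and not there (adjusted p 0.0507), and 16 genes were called by both (88.9% of 18 and 94.1% of 17). Leaving out knockout replicate 4 alone gave 13 calls among the 37 (beside 6.02% of all genes called higher), control replicate 4 alone 12 (beside 5.03%) and control replicate 6 alone 6 (beside 1.88%), and leaving out any other single library gave 0. Without knockout replicate 2 the median of the 36 went from 0.63 to 0.42, with 19 of 36 higher at an unadjusted p under 0.05, beside 10.7% of all genes.

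**Figure D5:**
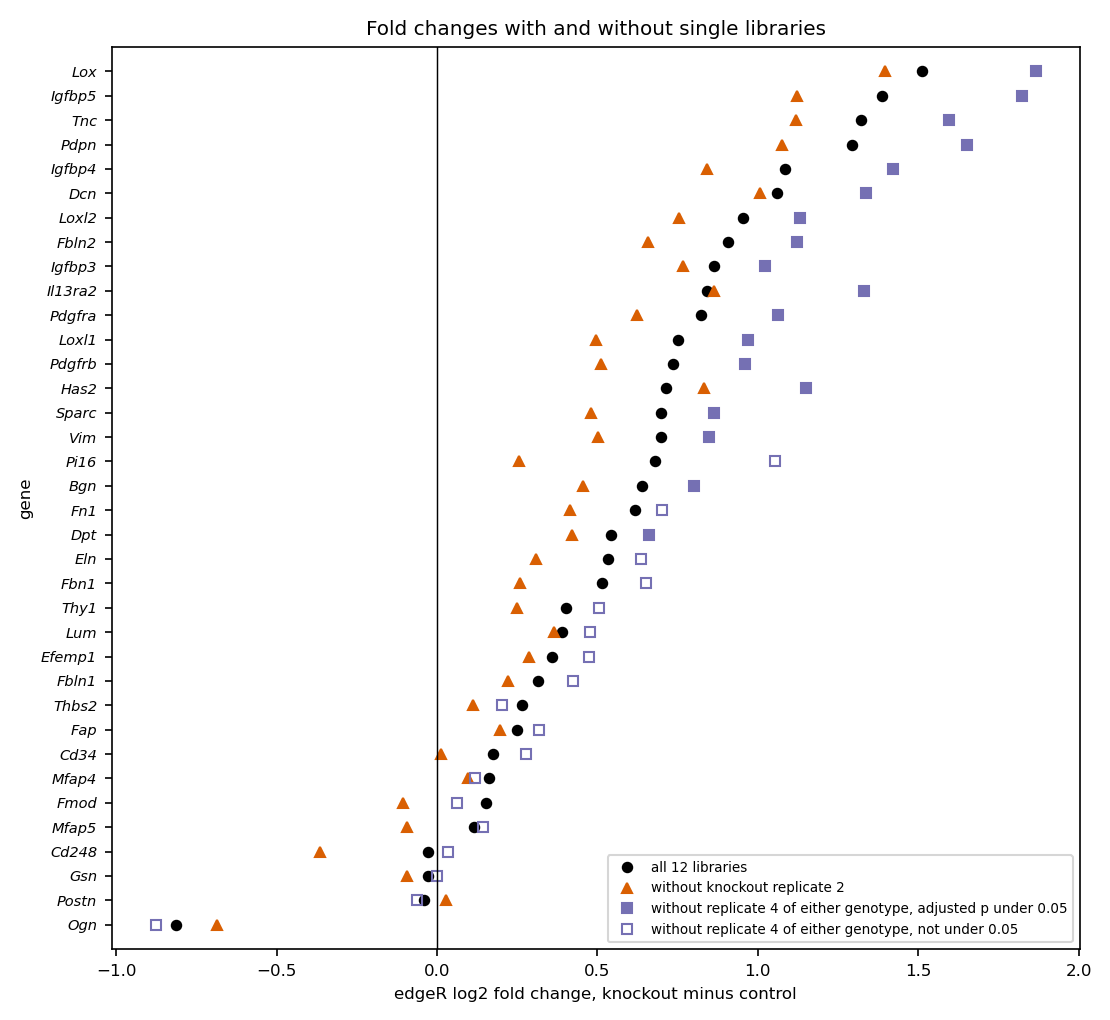
EdgeR log2 fold change (knockout minus control) of the 36 genes with all libraries (circles), without knockout replicate 2 (triangles) and without replicate 4 of either genotype (squares, filled where the adjusted p is under 0.05). Most triangles lie left of the circles and most squares right of them, while Ogn stays below 0 in all 3.

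Other genes of the matrix and of fibroblasts, in 7 lists of 92 genes, were tested in the same fit. Of 89 tested, 76 (85.4%) were above 0, 48 (53.9%) were higher at an unadjusted p under 0.05, beside 13.1% of all genes, and 2 lower, beside 9.48%. After adjustment 0 passed in edgeR. DESeq2 called 34 of them higher, beside 7.98% of all genes, and 1 lower. The 2 lower genes were Ccn3 (-0.38 ± 0.14, log2 fold change and SE) and Igfbp2 (-0.96 ± 0.26), an IGF-binding protein unlike Igfbp3, Igfbp4 and Igfbp5 in sign.

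For the counts by list, 45.1% of all genes were above 0 and 13.1% were higher at an unadjusted p under 0.05. The list of matricellular and adhesive glycoproteins was above 0 in 21 of 24 genes (median 0.73), 15 of them higher at an unadjusted p under 0.05. It was led by Ecm1 (1.11 ± 0.23, SE) and Thbs1 (1.56 ± 0.36), encoding thrombospondin 1, an activator of latent TGF-beta, at 624 ± 281 against 212 ± 113 CPM (SD, n = 6). Further elastic fibre genes were above 0 in 12 of 12 (median 0.51), 6 of them at an unadjusted p under 0.05. Among these were Ltbp1 (0.66 ± 0.17), which tethers latent TGF-beta to microfibrils, and Efemp2 (0.79 ± 0.23), whereas the most abundant, Ltbp4, stood at 0.04 ± 0.14. Proteoglycans outside the 36 were above 0 in 8 of 11 (median 0.32), 4 at an unadjusted p under 0.05, with versican (Vcan) at 1.04 ± 0.33 and perlecan (Hspg2) at 0.52 ± 0.18.

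The remaining lists are likewise set beside 45.1% of all genes above 0. At an unadjusted p under 0.05, 13.1% of all genes were higher and 9.48% lower. Of 7 hyaluronan genes 4 were above 0, all 4 at an unadjusted p under 0.05. Cemip, which degrades hyaluronan, stood at 189 ± 87.7 against 39.8 ± 42.5 CPM (SD, n = 6), a log2 fold change of 2.25 ± 0.60 with an adjusted p of 0.0636, and the hyaluronan receptor Cd44 stood at 0.45 ± 0.15. The IGF list was above 0 in 9 of 11 (median 0.35), 6 higher and 1 lower at an unadjusted p under 0.05. Pappa, which encodes PAPP-A, stood at 64.5 ± 39.1 against 15.3 ± 12.2 CPM (2.07 ± 0.50), its inhibitor gene Stc1 at 1.53 ± 0.34 and Igfbp7 at 0.71 ± 0.19. PDGF ligands and interleukin 13 receptor genes were above 0 in 5 of 6 tested (median 0.35), 2 at an unadjusted p under 0.05: Il4ra, the shared interleukin 4 and 13 receptor chain, at 0.82 ± 0.22 and Pdgfc at 0.54 ± 0.19, while Il13ra1 stood at -0.06 ± 0.12. Il4 and Il13 themselves did not pass the low-count filter. Fibroblast identity genes were above 0 in 17 of 18 (median 0.64), 11 at an unadjusted p under 0.05. The transcription factor genes Twist1 (0.88 ± 0.23) and Twist2 (1.63 ± 0.41) had groups that did not overlap, at low levels of 4.02 ± 0.866 against 2.18 ± 0.707 CPM and 5.85 ± 3.25 against 1.89 ± 1.01 CPM. They were the 2 of the 89 tested genes of all lists (2.25%) without overlap, beside 0.882% of all genes in this direction. Col3a1, the most abundant of that list, stood at 2870.1 ± 1227 against 1657 ± 581 CPM (0.79 ± 0.27). The edgeR adjusted p of the genes named by list ran from 0.0531 (Stc1) to 0.897 (Ltbp4).

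Markers of other cell types differed between the same libraries. For the counts below, 45.1% of all genes were above 0, and 13.1% were higher and 9.48% lower at an unadjusted p under 0.05 in edgeR. Macrophage and neutrophil markers were each higher at that threshold in 4 of 6. The 8 endothelial markers, with Plvap at 0.67 ± 0.16 and Pecam1 at 0.60 ± 0.16 (log2 fold change and SE) the most abundant, were all above 0, 6 at an unadjusted p under 0.05, and summed to 352 to 704 CPM in the knockouts (median 425) and 244 to 371 CPM in the controls (median 286), with knockout replicate 2 highest. Mural cell markers were above 0 in 7 of 7 tested (4 at an unadjusted p under 0.05, with Rgs5 at 0.32 ± 0.30 and Abcc9 at 0.96 ± 0.26) and summed to 418 to 933 CPM in the knockouts (median 683) and 259 to 721 CPM in the controls (median 389.9), with Higd1b at 0 in some libraries. Macrophage markers were above 0 in 6 of 6 (C1qb at 0.44 ± 0.14 and C1qa at 0.45 ± 0.15) and summed to 460.3 to 784 CPM in the knockouts (median 504) and 313 to 502 CPM in the controls (median 387). Neutrophil markers were above 0 in 6 of 6 (S100a9 at 1.81 ± 0.75 and S100a8 at 2.22 ± 0.78) and summed to 108 to 781 CPM in the knockouts (median 341) and 30.2 to 364 CPM in the controls (median 65.0). Neutrophil sums were highest in knockout replicates 2 and 3, while knockout replicates 4 (108 CPM) and 5 (120.4 CPM) lay below control replicates 4 (364 CPM) and 6 (134 CPM), and knockout replicate 6 (224 CPM) below control replicate 4. Smooth muscle markers, by contrast, were below 0 in 8 of 10 (0 higher and 3 lower at an unadjusted p under 0.05, with Acta2 at -0.13 ± 0.15 and Tagln at -0.28 ± 0.17) and summed to 1901 to 3065 CPM in the knockouts (median 2187) and 1943 to 4398 CPM in the controls (median 2668). Epithelial markers were below 0 in 5 of 6, 4 of them at an unadjusted p under 0.05 (Krt8 at -0.25 ± 0.11 and Epcam at -0.22 ± 0.10), and summed to 6748 to 7573 CPM in the knockouts (median 7301) and 7156 to 9838 CPM in the controls (median 8296). The part of these cell types in the values of the 36 genes was not tested.

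Of 6 enteric glia markers 4 were above 0, with Gfap at 22.0 ± 9.13 against 10.3 ± 2.52 CPM (SD, n = 6; log2 fold change 1.09 ± 0.26, edgeR adjusted p 0.0559) and Sox10 at 0.38 ± 0.17 (adjusted p 0.208), both higher at an unadjusted p under 0.05. Their sum was 259 to 408 CPM in the knockouts (median 288) and 254 to 348 CPM in the controls (median 311), but most of it was Erbb3 (-0.07 ± 0.15), which epithelium also expresses. Lymphocyte markers were below 0 in 5 of 6 and summed to 639 to 1145 CPM in the knockouts (median 859) and 579 to 1407 CPM in the controls (median 1046), most of it Jchain (-0.25 ± 0.20), with Cd79a next (0.00 ± 0.27). Of 8 adipocyte markers 6 were below 0, among them Cfd (-0.28 ± 0.41), Adipoq (-0.71 ± 0.51) and Plin1 (-1.71 ± 0.57, adjusted p 0.101), whereas Fabp4, which capillary endothelium also expresses, stood at 0.79 ± 0.33. The adipocyte sum was 48.4 to 237 CPM in the knockouts (median 107) and 64.0 to 152 CPM in the controls (median 97.7), with Fabp4 its largest part on average in the knockouts and Cfd in the controls, and Retn at 0 in some libraries. Mesothelial markers, from the outer lining, were above 0 in 5 of 5 tested (Msln at 0.81 ± 0.60 and Upk3b at 0.44 ± 0.67) and summed to 8.21 to 48.4 CPM in the knockouts (median 15.6) and 3.76 to 29.0 CPM in the controls (median 8.72), with knockout replicate 2 highest and Bnc1 at 0 in some libraries. Exocrine pancreas markers were below 0 in 6 of 6 (Ctrb1 at -2.03 ± 1.53 and Cpb1 at -2.79 ± 1.62) and summed to 1.85 to 1186 CPM in the knockouts (median 689) and 1.42 to 16998 CPM in the controls (median 684), highest in control replicate 6 and with Cela3b at 0 in some. Of 6 skeletal muscle markers 2 passed the low-count filter, Acta1 and Ckm, with log2 fold changes of -0.21 ± 0.33 and -0.06 ± 0.24. Myh4, Tnnt3 and Atp2a1 had 0 counts in some libraries. The skeletal muscle sum was 10.1 to 22.1 CPM in the knockouts (median 11.9) and 11.7 to 18.9 CPM in the controls (median 13.2). At an unadjusted p under 0.05 in edgeR, 1 of 6 lymphocyte markers was lower, and of 8 adipocyte markers 1 was higher and 1 lower. Over all genes 45.1% were above 0, and 13.1% were higher and 9.48% lower at that threshold. Of the mesothelial, exocrine pancreas and skeletal muscle markers 0 passed that threshold. The sums of all 12 marker lists overlapped between genotypes, and the part of these cell types in the values above was likewise not tested.

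Promoter sequences run from 250 bases before the start of transcription to 50 after. They are shown for the tested genes with the largest differences in either direction among those with an entry in the RefSeq table (GRCm38.p6). The table held 28 promoters of 23 of the 37 genes. Igfbp5, Tnc, Pdpn and Igfbp4 had the largest edgeR log2 fold changes of those tested among them, and Ogn the lowest. Has1, which also has an entry, was under the low-count filter and is not shown. Its log2 fold change in the authors' deposited comparison was 1.33. Capitals mark matches on either strand to the motifs searched. These were the TATA box, spelled TATAAA, the AP-1 site of Fos and Jun, spelled TGANTCA, the TEAD site, spelled GGAATG, the STAT site, spelled TTCNNNGAA, and the SMAD site, spelled CAGACA. The positions are chr1:72874816-72875115 (minus strand) for Igfbp5, chr4:64046887-64047186 (minus strand) for the first listed of 2 Tnc starts, chr4:143299515-143299814 (minus strand) for Pdpn, chr11:99040994-99041293 (plus strand) for Igfbp4 and chr13:49607765-49608064 (plus strand) for Ogn, each written in the direction of the gene.
Igfbp5: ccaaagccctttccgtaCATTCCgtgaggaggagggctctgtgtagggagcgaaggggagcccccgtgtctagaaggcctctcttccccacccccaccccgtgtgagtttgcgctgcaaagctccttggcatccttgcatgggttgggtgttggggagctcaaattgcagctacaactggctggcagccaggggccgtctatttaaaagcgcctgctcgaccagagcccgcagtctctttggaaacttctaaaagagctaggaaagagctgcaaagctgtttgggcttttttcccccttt
Tnc: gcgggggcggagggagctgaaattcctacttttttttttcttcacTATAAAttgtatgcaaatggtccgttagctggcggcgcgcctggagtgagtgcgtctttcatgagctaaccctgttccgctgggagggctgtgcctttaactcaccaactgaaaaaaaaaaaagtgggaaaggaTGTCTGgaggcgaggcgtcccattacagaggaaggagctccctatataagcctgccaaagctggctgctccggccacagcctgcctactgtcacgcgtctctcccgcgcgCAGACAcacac
Pdpn: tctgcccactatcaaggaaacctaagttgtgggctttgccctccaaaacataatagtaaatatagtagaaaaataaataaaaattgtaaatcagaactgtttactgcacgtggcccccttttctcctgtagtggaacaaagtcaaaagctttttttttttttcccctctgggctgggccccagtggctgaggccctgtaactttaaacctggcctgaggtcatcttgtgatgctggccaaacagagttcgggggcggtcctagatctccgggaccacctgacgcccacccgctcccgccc
Igfbp4: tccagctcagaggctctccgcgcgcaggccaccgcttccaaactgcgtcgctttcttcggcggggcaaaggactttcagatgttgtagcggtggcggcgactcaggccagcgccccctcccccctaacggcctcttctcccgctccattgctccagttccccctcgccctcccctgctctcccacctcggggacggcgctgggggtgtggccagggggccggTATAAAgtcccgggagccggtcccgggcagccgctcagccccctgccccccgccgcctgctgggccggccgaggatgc
Ogn: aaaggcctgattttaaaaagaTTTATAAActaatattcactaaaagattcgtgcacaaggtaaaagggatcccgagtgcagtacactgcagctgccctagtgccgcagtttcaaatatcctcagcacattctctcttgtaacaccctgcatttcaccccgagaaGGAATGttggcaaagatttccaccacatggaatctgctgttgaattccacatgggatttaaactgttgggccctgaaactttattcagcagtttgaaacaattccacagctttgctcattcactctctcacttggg

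Offsets are counted in bases from the start of transcription, negative upstream. The TATA box letters began at -28 in Igfbp4, at -32 in Vim, at -31 in Il13ra2 and at -26 in a Postn promoter. In the printed Tnc promoter they began at -205, and in Ogn overlapping matches on opposite strands lay at -229 and -227. The remaining matches lay at 12, downstream of the start, in Dpt, at -126 on the opposite strand in Thbs2, at -248 in Il13ra2 and at -126 in the other Tnc promoter. By gene, 8 of 23 (34.8%) held the TATA box letters in at least 1 promoter, beside 15.7% of the 27025 genes of the table. Among the 12 of these genes that were higher at an unadjusted p under 0.05 there were 4, and among the other 11 likewise 4. AP-1 letters were in 2 of 23 genes (8.70%, beside 8.97% of all), TEAD letters in 3 (13.0%, beside 16.6%), STAT letters in 1 (4.35%, beside 9.55%) and SMAD letters in 5 (21.7%, beside 23.6%). In the Pdpn window none of the 5 motifs occurred. Such matches describe the letters of these windows only.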

How the data were processed

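Colon RNA-seq libraries of 12 DSS-treated mice, 6 per genotype, were made from Trizol RNA with the SMARTER mRNA-Seq kit, per the labels' protocols. The authors deposited 1 table with whole-number read counts and TPM per gene and library, per the file headers. It also holds, per the file headers, the authors' mean TPM per genotype, a log2 fold change and a p-value with its adjusted value, from a test that is not named. The submitters' processing notes list the builds GRCm38, mm10 and mm39; the aligner, the counter and the strand setting were not stated there. Columns belonging to no sample of the series numbered 0.

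Counts were analysed as deposited in R 4.3.3 with edgeR 4.0.16 (filterByExpr with minimum count 10 and minimum total 15, TMM, glmQLFit and glmQLFTest, knockout minus control, no covariate), with Benjamini-Hochberg adjustment over all 14393 genes and a threshold of 0.05. SEs derive from the fold change and F statistic. Log2 CPM used a prior count of 2. The members, companion lists and markers were chosen with earlier results of these data known. Full values are given for the 12 members with the smallest p and the 5 with the highest mean TPM. In each companion list the 2 genes with the smallest p and the most abundant one are named, and in each marker list the 2 most abundant. Ogn, Lum, the ratios and other single genes were named after their values were seen. Alternatives used DESeq2 1.42.0, limma 3.58.1 (voom, and log2(TPM + 1) or log2(TPM + 0.1) trend), other scalings and filters, a replicate block and libraries left out. The lowest chi-square per gene between any pair of libraries was 19.4, so none were duplicates. On simulated data with 14299 genes the test recovered 78.0% of genes changed by 1 on the log2 scale and 22.0% of those changed by 0.5. Whether the simulated spread matches that of these libraries was not tested, so these shares do not give the recovery here. In these data Lox, at a log2 fold change of 1.51, was not called (edgeR adjusted p 0.0541).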

Additional observations from a re-analysis of the deposited data

Results flagged for a closer look

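Each of the 36 tested genes was checked in both genotypes for a library far from the other 5, and 17 of 72 groups were marked in that way. The check marks about 1 in 20 groups of independent, normally distributed values, which these CPM are not known to be. The share of groups marked over all genes was not computed, so 17 of 72 does not show an excess over chance. In 16 of the 17 the library was knockout replicate 2, and these values share that library. Its values beside the next knockout were Pdgfrb 115 CPM (next 66.8), Fn1 1260 CPM (next 735), Bgn 735 CPM (next 467), Fbln2 155 CPM (next 84.5), Fbn1 234 CPM (next 123) and Eln 162 CPM (next 92.3). Likewise it stood at Sparc 1350 CPM (next 774), Loxl2 296 CPM (next 178), Pdpn 76.9 CPM (next 43.1), Pi16 23.9 CPM (next 11.0) and Cd34 72.8 CPM (next 46.5). The remaining genes were Cd248 24.2 CPM (next 10.9), Thbs2 34.7 CPM (next 22.9), Vim 511 CPM (next 314), Igfbp4 1100 CPM (next 580) and Igfbp5 2790 CPM (next 1530). In addition, Has2 stood at 4.36 CPM in control replicate 4, with the next control at 2.11. Knockout replicate 2 also had the highest endothelial (704 CPM), macrophage (784 CPM), neutrophil (781 CPM) and mesothelial (48.4 CPM) marker sums of the 12 libraries and the lowest mitochondrial share, 5.59%. The part of these in the gene values was not tested.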

How the results depend on the processing

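Over 25 alternatives, 31 of the 36 genes kept their direction in every one, and 23 were called in at least 1. The shares of all genes that did so were not computed, so these counts are not shown to be particular to the 36. The setting with the most calls, limma voom with sample quality weights, called 2888 genes of any kind. Of 900 gene values, 767 stayed on their side of the threshold, 106 passed it, 0 lost a call, since none was called to begin with, and 27 reversed. Postn turned to 0.00109 (library size only), 0.016 (limma voom with sample quality weights), 0.065 (limma-trend on log2(TPM + 1)) and 0.066 (limma-trend on log2(TPM + 0.1)) and ran from -0.13 to 0.045 with 1 library left out, changing sign in 4 of 12 such fits. Mfap5 turned to -0.00102 (limma voom with sample quality weights) and ran from -0.10 to 0.28 with 1 library left out, changing sign in 1 of 12 such fits. Cd248 turned to 0.023 (library size only) and 0.032 (without replicate 4 of either genotype) and ran from -0.37 to 0.044 with 1 library left out, changing sign in 6 of 12 such fits. Fmod ran from -0.11 to 0.48 with 1 library left out, changing sign in 1 of 12 such fits. Gsn turned to 0.012 (library size only), 0.030 (limma-trend on log2(TPM + 1)) and 0.030 (limma-trend on log2(TPM + 0.1)) and ran from -0.10 to 0.022 with 1 library left out, changing sign in 5 of 12 such fits. Counts of calls moved by over 1.5 times from 8 genes, 0 of the 36 and 0 companion genes under these settings. DESeq2 size factors gave 52 genes and 1 of the 36, beside 0.229% of all genes called higher. Library size only gave 275 genes, 4 of the 36 and 8 companion genes, beside 1.6% of all genes called higher. The DESeq2 test gave 1532 genes, 17 of the 36 and 35 companion genes, 1 of them lower, beside 7.98% of all genes called higher. With limma voom, the calls were 49 genes. With limma voom with sample quality weights, the calls were 2888 genes, and 5065 genes at unadjusted p under 0.05. In that setting 22 of the 36 were called, beside 10.8% of all genes called higher, and 45 companion genes, 1 of them lower. With edgeR robust quasi-likelihood, the calls were 53 genes and 1 of the 36, beside 0.222% of all genes called higher. With limma-trend on log2(TPM + 1), the calls were 403 genes, 6 of the 36 and 15 companion genes, beside 2.47% of all genes called higher. With limma-trend on log2(TPM + 0.1), the calls were 413 genes, 6 of the 36 and 16 companion genes, beside 2.54% of all genes called higher. Without replicate 4 of either genotype, the calls were 1911 genes, 18 of the 37 and 32 companion genes, 1 of them lower. In that setting 8.4% of all genes were called higher. An adjusted p of 0.1 as the threshold gave 1384 genes and 17 of the 36, beside 6.59% of all genes called higher. Leaving out 1 library at a time gave 0 to 29 companion genes called, 2536 to 3848 genes at unadjusted p under 0.05, 2 to 1272 genes called, 0.42 to 0.72 for the median log2 fold change, 18 to 26 of the genes described at unadjusted p under 0.05 and 0 to 13 of the genes described called. The replicate block, which takes same-numbered mice as pairs, called 1 gene and 0 of the 36, with 18 at an unadjusted p under 0.05 and a median of 0.59. The numbers do not pair the mice: correlations of deviations ran from -0.50 to 0.08, and no mouse correlated best with its own number. The cause of these changes was not tested.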
